A study of Mus musculus with 6 samples.

Results

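The 9 genes described here belong to enzyme families that consume or sense diacylglycerol, the lipid that diacylglycerol acyltransferase 1 (DGAT1) turns into triacylglycerol. They are the diacylglycerol kinase genes Dgka, Dgkd, Dgkq and Dgkz and the protein kinase C genes Prkca, Prkcd, Prkce, Prkcq and Prkcz. Of these, Prkcz encodes an isoform that diacylglycerol does not activate. The 9 genes were picked by gene symbol, with earlier results of these data known. Of the 41345 probe sets of the array, 10 carry 1 of these symbols, 2 of them that of Dgkz. RNA was taken from the gastrocnemius muscle of 3 DGAT1 transgenic mice and 3 wild-type (WT) mice, all males on a C57 background (C57BL/6 in the methods) and 3 months old, with 1 Affymetrix Mouse Gene 2.0 ST array per mouse. According to the methods, the transgenic mice were first-generation offspring of founders crossed with WT mice, and carried a porcine DGAT1 cDNA driven by the porcine promoter of muscle creatine kinase (MCK), which is active in muscle. The labels instead call the same mice a DGAT1 knockout, and the probe sets of this array were designed for mouse transcripts, and whether they detect the porcine transcript was not tested. On the log2 scale mouse Dgat1 stood at 8.09, 7.65 and 7.73 in transgenic mice, against 7.96, 7.26 and 7.79 in WT mice, and the groups overlapped.

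Diacylglycerol is produced in the membrane by phospholipases C and by phosphatidic acid phosphatases, and it is both a building block of triacylglycerol and a second messenger. Diacylglycerol kinases phosphorylate it to phosphatidic acid and so end the signal. Protein kinases C are serine and threonine kinases, most of which are recruited to membranes and activated when their C1 domains bind diacylglycerol. In skeletal muscle, diacylglycerol that builds up is known for activating protein kinase C theta, which can phosphorylate insulin receptor substrate 1 (Irs1) and dampen insulin signaling. The comparison of transgenic with WT mice addressed whether mRNA levels of these enzymes differed between the groups in muscle, where the methods place the DGAT1 transgene.

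All values are log2 expression values, on which a difference of 1 is a doubling. A probe set was called when it passed the study threshold, an unadjusted p under 0.05 from limma together with a fold change of at least 1.5 in either direction. None of the 10 member probe sets was called, where 1.49% of all probe sets were (618 of 41345). After Benjamini-Hochberg adjustment over all probe sets 0 of the 41345 had an adjusted p under 0.05 from limma (0%), with 1197 at an unadjusted p under 0.05, and the methods' t-test also gave 0, with 1364. Of the members, 0 probe sets had an unadjusted p under 0.05 from limma and 1 (Prkcz) by the methods' t-test. The median log2 fold change was -0.13 over the 9 genes, each by its brighter probe set, and -0.0055 over all probe sets. Means were lower in transgenic mice for 6 genes (Dgka, Dgkd, Dgkz, Prkca, Prkcd and Prkcz) and higher for 3 (Dgkq, Prkce and Prkcq). These signs are for the brighter probe set, and the dimmer probe set of Dgkz went the other way, at 0.30. Over all probe sets, means were lower for 21155 and higher for 20190. For 5 of the 10 probe sets (Dgka, Dgkd, Prkce, Prkcq and Prkcz) the 95% confidence interval of the fold change lay wholly inside a 1.5-fold change in both directions, and for the other 5 it did not, so that a change of that size was within the error. In whole muscle, fewer cells of a type and less RNA per cell cannot be told apart.

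**Figure D1:**
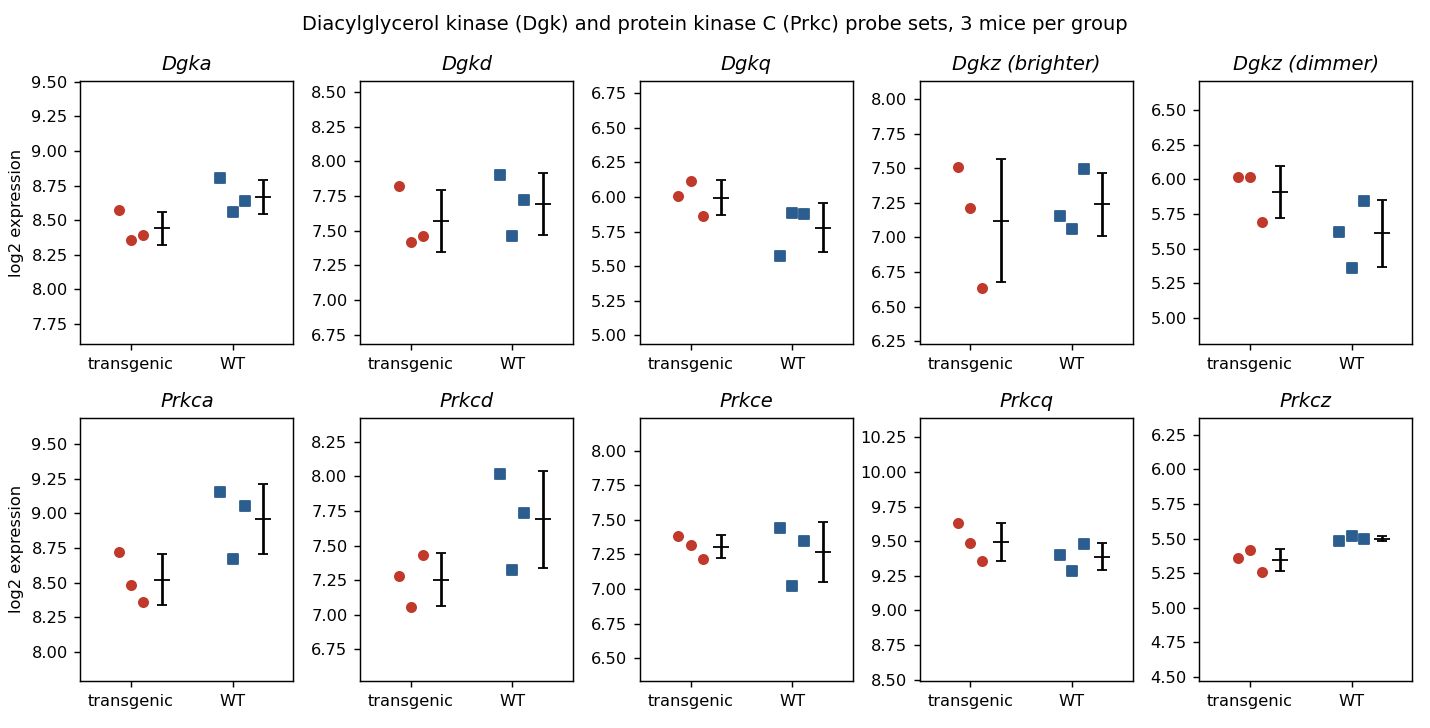
Log2 expression of the 10 member probe sets (vertical axis, each panel spanning the same range of log2 units) in 3 transgenic mice (red circles) and 3 WT mice (blue squares), with the mean and SD of each group in black. The largest gaps between means are those of Prkca (8.52 in transgenic and 8.96 in WT mice) and Prkcd (7.25 in transgenic and 7.69 in WT mice), and the groups are apart only in Prkcz.

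Prkca encodes protein kinase C alpha, an isoform that needs both calcium and diacylglycerol. Its log2 values (probe set 17271168) were 8.72, 8.48 and 8.36 in transgenic mice, against 9.16, 8.67 and 9.05 in WT mice. WT replicates 1 and 3 lay above all transgenic mice, and WT replicate 2 lay inside their range, so the groups overlapped. The mean was 8.52 ± 0.18 in transgenic mice and 8.96 ± 0.25 in WT mice (SD, n = 3 each). The transgenic level was 0.739 of the WT level, with a log2 fold change of -0.44 (SE 0.19, 95% confidence interval -0.88 to 0.0044). The difference missed both parts of the threshold, with p = 0.0518 (limma, adjusted p = 1) and p = 0.2 in a two-sided exact permutation test. In the exact test the smallest p that 3 mice against 3 allow is 0.1. Under 6 alternative settings the unadjusted p of Prkca lay between 0.00526 and 0.0728, and the fold change never reached the minimum. Only the methods' t-test gave a p above 0.05 (0.0728). The limma p was 0.0297 after quantile normalization, 0.0398 with a trended prior, 0.0404 with a replicate block and 0.0433 with dim probe sets dropped. The lowest p came with arrayWeights, in which limma gives each array a weight. That fit leaned on WT replicate 3, at a weight of 5.15 against 0.46 and 0.37 for WT replicates 1 and 2. Without WT replicate 2 the log2 fold change was -0.58, or 0.668 of the WT level, still short of the fold minimum. By the brighter probe set, skeletal muscle markers had lower means in transgenic mice for all 8 genes measured, with a median log2 fold change of -0.12 and 0 called. A dimmer probe set of the marker Ckm went the other way, at 0.39, with every transgenic mouse above every WT mouse and no call. The part of these markers in the value of Prkca was not tested.

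Prkcd encodes protein kinase C delta, which responds to diacylglycerol without calcium. Its log2 values (probe set 17304406) were 7.28, 7.06 and 7.43 in transgenic mice, against 8.02, 7.32 and 7.74 in WT mice. Again WT replicate 2 fell within the transgenic range and the other WT mice lay above it. The mean was 7.25 ± 0.19 in transgenic mice and 7.69 ± 0.35 in WT mice (SD, n = 3 each), which is 0.739 of the WT level. The log2 fold change was -0.44 (SE 0.22, 95% confidence interval -0.95 to 0.073), with p = 0.0823 (limma, adjusted p = 1) and p = 0.2 in the exact permutation test. Under the 6 alternative settings the unadjusted p of Prkcd lay between 0.0191 and 0.130, and the fold change never reached the minimum. The limma p was under 0.05 with arrayWeights (0.0191), a replicate block (0.0429) and quantile normalization (0.0466). Prkcd was the 1 member whose call depended on a single mouse. Without WT replicate 2 its log2 fold change was -0.62, or 0.650 of the WT level, past the study threshold, and without WT replicate 1 it was -0.27 and not past it.

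Prkcd is also abundant in myeloid cells. All 6 macrophage markers measured had higher means in transgenic mice. Of these, Cd68 (1.56-fold) was past the study threshold by its unadjusted limma p, and the other 5 were not. Cd68 did not pass after adjustment over all probe sets, and its outcome by the methods' t-test was not examined. The mean of the list was 7.56 to 8.02 over the transgenic mice and 7.32 to 7.58 over the WT mice. The defining markers Csf1r and Adgre1 had log2 fold changes of 0.35 and 0.34. The part of macrophages in the values of Prkcd was not tested.

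The promoters of these kinase genes are shown for the pair with the largest differences and for Prkcq, the muscle isoform. They are the 150 bases before a transcription start listed by RefSeq on GRCm38.p6, 5′ to 3′ on the strand of the gene, with GC boxes (GGGCGG, or CCGCCC on the other strand, overlapping matches included) in capitals. The Prkca stretch lies on the minus strand at chr11:108343889-108344038, that of Prkcd, before the first of its 2 listed starts, on the minus strand at chr14:30626209-30626358, and that of Prkcq on the plus strand at chr2:11172232-11172381.
Prkca: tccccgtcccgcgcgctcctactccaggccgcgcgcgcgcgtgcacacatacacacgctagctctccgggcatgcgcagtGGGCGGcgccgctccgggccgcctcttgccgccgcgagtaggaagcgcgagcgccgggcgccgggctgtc
Prkcd: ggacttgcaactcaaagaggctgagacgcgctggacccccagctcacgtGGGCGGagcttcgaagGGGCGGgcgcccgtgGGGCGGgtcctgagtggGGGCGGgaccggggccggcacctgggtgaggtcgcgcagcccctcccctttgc
Prkcq: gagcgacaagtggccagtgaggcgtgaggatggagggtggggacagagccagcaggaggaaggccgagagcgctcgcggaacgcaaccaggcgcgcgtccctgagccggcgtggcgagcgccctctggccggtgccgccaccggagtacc
The Prkca stretch holds 1 GC box, that of Prkcd 4 and that of Prkcq 0. In the 250 bases before the start, 12 of 15 listed starts of the 8 member genes in the table other than Prkce held a GC box, and so did 32.7% of the 32851 starts of all genes. The E-box (CANNTG, which reads the same on both strands) was in 10 of the 15, and in 66.2% of all starts. Dgka supplied 4 of the 15 starts and Prkcz 3, so the starts are not independent and these counts are no test. A match is a string of letters and not a bound site, and the arrays do not show which start was used.

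Prkcq encodes protein kinase C theta, the main diacylglycerol-activated isoform of skeletal muscle and of T cells. Its log2 values (probe set 17366953) were 9.63, 9.49 and 9.36 in transgenic mice, against 9.40, 9.29 and 9.48 in WT mice. The groups overlapped, with the highest value in transgenic replicate 1 and the lowest in WT replicate 2. The transgenic level was 1.07-fold the WT level (95% confidence interval 0.845 to 1.37, limma adjusted p = 1), an interval that lies inside a 1.5-fold change either way, and the log2 fold change of 0.10 was 0.033 to 0.17 when 1 mouse was left out. Of the T cell markers, Cd3d, Cd3e and Cd3g, which encode the defining chains of the T cell receptor complex, lay below the median of the array in every mouse, Cd2 lay above it in 4 of 6 mice and Cd5 and Trat1 in 2 each. Of these 6 markers 3 had higher and 3 lower means in transgenic mice.

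Prkce, which encodes protein kinase C epsilon, another calcium-independent isoform, had the smallest difference of the 10 probe sets. Its log2 values (probe set 17340177) were 7.38, 7.32 and 7.22 in transgenic mice, against 7.44, 7.02 and 7.34 in WT mice. The transgenic mice lay inside the range of the WT mice. The fold change was 1.03 (95% confidence interval 0.785 to 1.34, limma adjusted p = 1).

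Prkcz encodes protein kinase C zeta, an atypical isoform that is activated neither by diacylglycerol nor by calcium. It was the 1 member in which the groups did not overlap, with 5.36, 5.42 and 5.26 in transgenic mice, against 5.48, 5.52 and 5.50 in WT mice (probe set 17433755). Over all probe sets, 4.31% had all transgenic mice below all WT mice and 2.9% all above, so that 1 of 10 is near this background. The means differed by little, at 5.34 ± 0.079 in transgenic mice and 5.50 ± 0.017 in WT mice (SD, n = 3 each), and all 6 values lay below the median of their array. The log2 fold change of -0.16 (SE 0.13) had p = 0.276 (limma, adjusted p = 1) and p = 0.1 in the exact permutation test, the smallest this test can give. By the methods' t-test, which takes the small spread of this probe set at face value, the unadjusted p was 0.0286. The fold change of 0.898 was far from the fold minimum.

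Among the diacylglycerol kinases, Dgka encodes the alpha isoform, which is regulated by calcium. Its log2 values (probe set 17246310) were 8.58, 8.36 and 8.39 in transgenic mice, against 8.80, 8.56 and 8.64 in WT mice. Transgenic replicate 1 lay just above WT replicate 2, and the other transgenic mice were below all WT mice. The level in transgenic mice was 0.855 of that in WT mice. The log2 fold change of -0.23 (SE 0.15) had p = 0.168 (limma, adjusted p = 1) and p = 0.2 in the exact permutation test.

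Dgkd encodes the delta isoform, which has been linked to insulin sensitivity in skeletal muscle. Its log2 values were 7.82, 7.42 and 7.46 in transgenic mice, against 7.90, 7.46 and 7.72 in WT mice (probe set 17215395). Replicate 1 was the highest of each group, and the ranges overlapped almost completely. The transgenic level was 0.916 of the WT level, a log2 fold change of -0.13 (SE 0.19, limma adjusted p = 1). It was -0.022 without WT replicate 1 and -0.25 without transgenic replicate 1.

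Dgkq encodes the theta isoform. Its log2 values (probe set 17450802) were 6.01, 6.11 and 5.87 in transgenic mice, against 5.58, 5.88 and 5.87 in WT mice. The groups met at transgenic replicate 3 and WT replicates 2 and 3. The fold change was 1.16 (95% confidence interval 0.897 to 1.51), with p = 0.211 (limma, adjusted p = 1) and p = 0.3 in the exact permutation test, and the log2 fold change of 0.22 was 0.12 without WT replicate 1.

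Dgkz encodes the zeta isoform, which carries a region like the phosphorylation site of the Marcks protein and can enter the nucleus. The log2 values of its brighter probe set (17388293) were 7.51, 7.21 and 6.64 in transgenic mice, against 7.15, 7.06 and 7.50 in WT mice, and the SD of 0.44 among the transgenic mice was the largest of any member group. Transgenic replicate 3 was the lowest of the 6 mice and transgenic replicate 1 the highest. Its dimmer probe set (17373448) had values of 6.02, 6.02 and 5.69 in transgenic mice, against 5.62, 5.36 and 5.85 in WT mice. The probe sets disagreed in sign, with log2 fold changes of -0.12 (SE 0.25) and 0.30 (SE 0.18), neither of them called (limma adjusted p = 1 for both). No direction can be given for Dgkz, since the brighter probe set was at 0.12 without transgenic replicate 3 and at 0.012 without WT replicate 3, and the mean of both probe sets was 0.091.

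**Figure D2:**
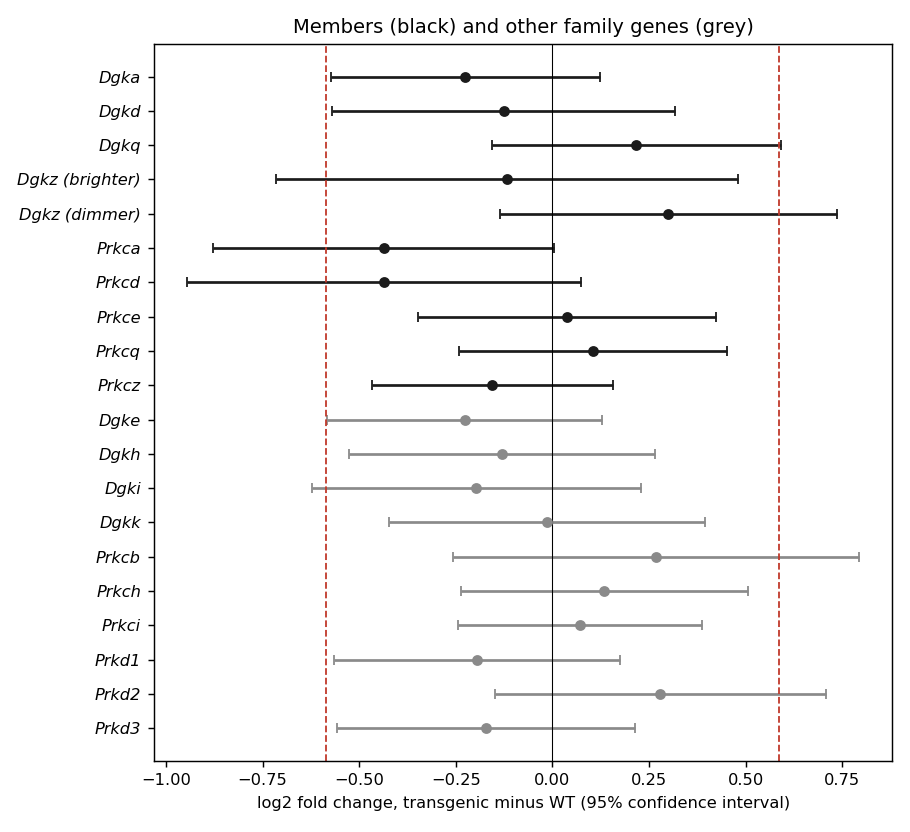
Log2 fold change of transgenic over WT mice (horizontal axis) with its 95% confidence interval from limma, for the 10 member probe sets (black) and for 10 other genes of the diacylglycerol kinase, protein kinase C and protein kinase D families (grey), with dashed lines at a 1.5-fold change either way. Every interval reaches 0, and those of Prkca and Prkcd extend farthest to the left, to -0.88 and -0.95.

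The mice contributed unequally to these values. WT replicate 1 had the highest of the 6 values in 5 member probe sets (Dgka, Dgkd, Prkca, Prkcd and Prkce), and WT replicate 2 was the lowest WT mouse in 8 of 10. Transgenic replicate 3 was below the mean of the 6 mice in all 9 genes, with an average deviation of -0.18 log2 units, and WT replicates 1 and 3 had average deviations of 0.15 and 0.14. Over the whole array WT replicate 2 averaged 0.13 log2 units above the mean of the 6 mice for probe sets under the median level. For the other probe sets it deviated by -0.039. Under the median level WT replicate 1 deviated the other way, by -0.10, and transgenic replicate 2 deviated by 0.081. After quantile normalization, which gives all arrays the same distribution, the log2 fold changes of Prkca and Prkcd were -0.43 and -0.44. Array medians were 5.71 to 5.88 and standard deviations over probe sets 1.82 to 1.96. Transcripts of hepatocytes varied between mice within both groups, with Alb at 5.54 to 11.69 in transgenic mice and at 6.04 to 11.46 in WT mice, and the part of this variation in the member values was not tested. The 8 skeletal muscle markers averaged 12.68 to 12.84 over the transgenic mice and 12.82 to 12.96 over the WT mice, with 0 called.

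**Figure D3:**
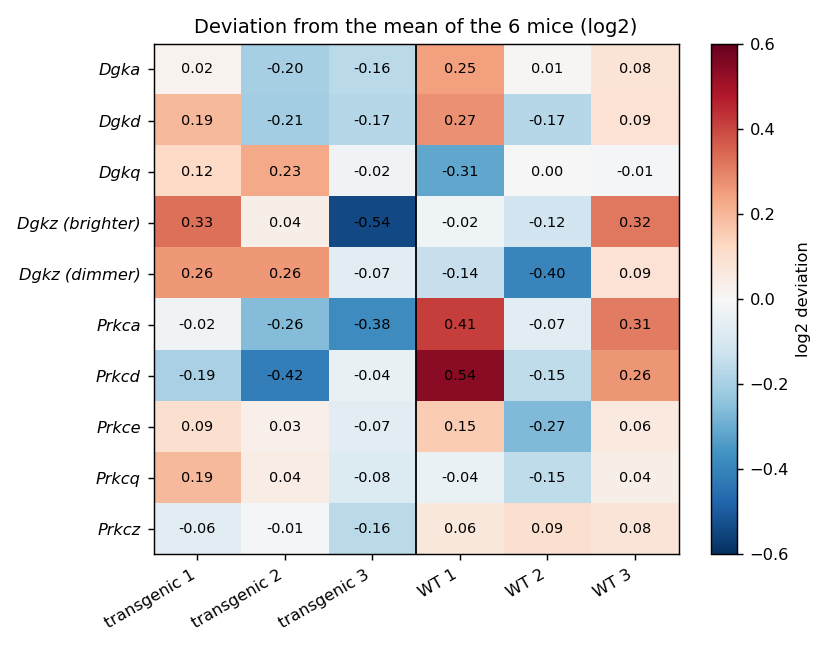
Deviation of each mouse (columns, transgenic mice left of the line and WT mice right of it) from the mean of the 6 mice, in log2 units, for the 10 member probe sets (rows), with red above and blue below that mean. Transgenic replicate 3 is blue in every row, and WT replicate 1 is darkest red in Prkcd, where it had a value of 8.02.

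The patterns nearest to Prkca and to Dgka, the members of each family with the largest differences by the brighter probe set, were found among 23524 other probe sets with 1 gene symbol, as the Euclidean distance over the 6 mice after subtracting the mean of each probe set. Nearest to Prkca were Asb10, which encodes an ankyrin repeat protein with a SOCS box (distance 0.0896), Syne1, which encodes a nuclear envelope protein (0.108), and Larp6, which encodes an RNA-binding protein (0.145). Their log2 fold changes were -0.44, -0.36 and -0.45. Nearest to Dgka were Asxl1, a chromatin regulator gene (0.0659), Kctd19 (0.0680) and Gm4184 (0.0694), with log2 fold changes of -0.21, -0.19 and -0.21. The choice by distance makes these fold changes resemble those of the members, so the likeness is a description and no test.

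Other genes were taken from 9 lists, which cover diacylglycerol metabolism and sensing and the regulators, partners and substrates of protein kinase C. Of 81 listed genes, 75 had a probe set with a single symbol and the other 6 were not analysed here. By the brighter probe set of each gene 0 of 75 were called, 41 had higher and 34 lower means in transgenic mice, and the median log2 fold change was 0.016, against -0.0055 over all probe sets. The groups did not overlap in 4 genes with lower values in transgenic mice, near the 4.31% of all probe sets, and in 1 gene with higher values, against 2.9%. For 50 of the 75 the 95% confidence interval lay inside a 1.5-fold change in both directions.

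Of the remaining diacylglycerol kinase genes, 4 were measured, all with lower means and 0 called. Their log2 fold changes ran from -0.23 for Dgke and -0.20 for Dgki to -0.014 for Dgkk. Dgki was at -0.064 without WT replicate 2, and a dimmer probe set of Dgke was at 0.078, against the sign of the brighter one. The 6 other protein kinase C and protein kinase D genes had 4 higher and 2 lower means with 0 called, and the largest differences were those of Prkd2 (0.28) and Prkcb (0.27). Prkcb encodes the beta isoform of protein kinase C, and Prkd2 a kinase that protein kinase C activates. Its values were 7.23, 6.81 and 7.12 in transgenic mice, against 6.83, 6.55 and 6.94 in WT mice, which overlap. Without WT replicate 2 the log2 fold changes were 0.17 for Prkd2 and 0.13 for Prkcb, and without transgenic replicate 2 they were 0.40 and 0.46.

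Among the enzymes that produce diacylglycerol, the largest difference by the brighter probe sets was that of Lpin1, which encodes lipin 1, the main phosphatidic acid phosphatase of skeletal muscle. The log2 values of Lpin1 were 11.03, 10.75 and 10.86 in transgenic mice, against 11.55, 11.24 and 11.28 in WT mice, and every transgenic mouse was below every WT mouse. The transgenic level was 0.717 of the WT level (95% confidence interval 0.553 to 0.930), a log2 fold change of -0.48 (SE 0.16). Lpin1 passed the p part of the threshold but not the fold minimum, with p = 0.0194 (limma, adjusted p = 1) and p = 0.1 in the exact permutation test. Its log2 fold change was -0.55 to -0.38 when 1 mouse was left out, and without WT replicate 1, transgenic replicate 2 or transgenic replicate 3 it missed the p part as well. The 5 other phosphatase genes had higher means, up to 0.23 for Plpp2, which was at 0.042 without transgenic replicate 3. A second, dim probe set of Lpin2, with 4.08, 3.42 and 3.74 in transgenic mice and 2.59, 3.39 and 3.30 in WT mice, was past the study threshold at 1.57-fold, with p = 0.0466 (limma, adjusted p = 1) and p = 0.1 in the exact permutation test. All 6 values lay below the median of their array, and the brighter probe set was at 1.07-fold and was not called. The dim probe set lost the call under arrayWeights (1.44-fold), the methods' t-test, quantile normalization, the trended prior and without transgenic replicate 1 or 3 or WT replicate 1 or 3, with a log2 fold change of 0.40 without WT replicate 1. Of 13 phospholipase C genes, 4 had higher and 9 lower means with 0 called, with Plcl1, which encodes a relative without catalytic activity, at -0.34 and Plcg2 at 0.26. Plcl1 was at -0.17 without WT replicate 1, and Plcg2 at 0.047 without WT replicate 2.

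Other listed genes act in the synthesis of triacylglycerol and phospholipids or in the breakdown of triacylglycerol, diacylglycerol and monoacylglycerol. Not all of them act on diacylglycerol itself. The 8 measured genes of triacylglycerol and phospholipid synthesis had 4 higher and 4 lower means, with log2 fold changes of 0.15 for Dgat1 (SE 0.23), -0.15 for Dgat2 (SE 0.18) and -0.25 for Mogat2, a monoacylglycerol acyltransferase gene. Without WT replicate 2 the values of Dgat1 and Mogat2 were -0.051 and -0.10, and without transgenic replicate 1 that of Dgat2 was -0.018. Among the 6 genes of the lipase list Mgll, which encodes monoacylglycerol lipase, had values of 7.84, 7.69 and 8.05 in transgenic mice, against 7.65, 7.48 and 7.63 in WT mice. The groups did not overlap, at a log2 fold change of 0.27, with p = 0.121 (limma, adjusted p = 1) and p = 0.1 in the exact permutation test, and hormone-sensitive lipase Lipe was at 0.19. Without transgenic replicate 3 they were at 0.18 and 0.12. Adipocytes are rich in both lipases. All 6 adipocyte markers had higher means in transgenic mice, with 0 called and list means of 7.87 to 8.46 over the transgenic mice and 7.54 to 8.34 over the WT mice, and their part in the lipase values was not tested.

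Other proteins with C1 domains, and the partners and targets of protein kinase C, likewise held 0 calls. Of 10 listed C1 domain genes and relatives, 6 had higher means, with Rasgrp4 at 0.23 and Rasgrp2 at -0.21, both of which encode exchange factors for small GTPases. Rasgrp4 was at 0.098 without transgenic replicate 3, and Rasgrp2 at -0.33 without WT replicate 2. Of 11 genes that prime, dephosphorylate or anchor protein kinase C, 7 had higher means, with Cavin3, which encodes a caveolar protein that binds protein kinase C delta, at 0.29. Cavin3 was at 0.11 without WT replicate 2 and also with arrayWeights. Pick1, which encodes a protein that binds the end of protein kinase C alpha, had values of 7.52, 7.46 and 7.37 in transgenic mice, against 7.81, 7.60 and 7.82 in WT mice. The groups did not overlap, at a log2 fold change of -0.29, with p = 0.0805 (limma, adjusted p = 1) and p = 0.1 in the exact permutation test. Of 11 substrate genes 8 had higher means, with Marcks, the major membrane substrate, at 0.25, and at 0.10 without transgenic replicate 1. The brighter probe set of Irs1 was at -0.33 (SE 0.43), at 0.076 without transgenic replicate 2, and ranged from 7.75 to 9.29 in transgenic mice and from 8.33 to 9.31 in WT mice. Its dimmer probe set was at 0.43 (SE 0.51), with values of 6.55 to 8.15 in transgenic mice and 6.18 to 7.78 in WT mice, so that no direction can be given for Irs1.

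**Figure D4:**
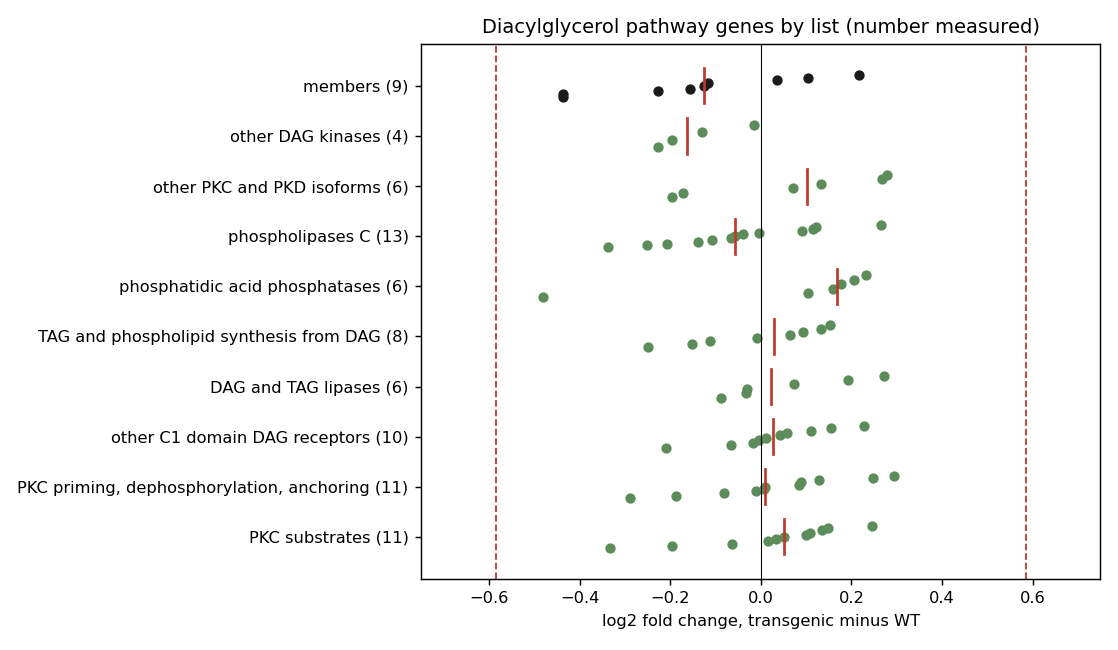
Log2 fold change of transgenic over WT mice (horizontal axis) for the brighter probe set of each member and of each other gene of the diacylglycerol pathway (points), grouped by list, with the list median as a red bar and dashed lines at a 1.5-fold change either way. No point reaches a dashed line, and the nearest are Lpin1 at -0.48 and Prkca and Prkcd at -0.44.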

How the data were processed

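Total RNA of 6 mice (3 transgenic, 3 WT) was measured on 1 array each. The deposited log2 values were normalized between arrays by the authors. RMA is named in the submitters' processing notes, and the methods name GCOS and GeneSpring. Only the value table was used, so background correction could not be varied, and detection calls were not used here. Without scanner data, precision is limited by the number of mice.

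Genes were named from the platform annotation, in which 23525 probe sets carry 1 symbol, 1816 several and 16004 none. Transgenic and WT mice were compared over all 41345 probe sets with limma 3.58.1 in R 4.3.3 (lmFit and eBayes, two-sided), with Benjamini-Hochberg adjustment over all of them, and checked on simulated data. Where a gene had several probe sets, the one with the highest mean was taken as its main value. All members were named, and from each other list the 2 genes with the largest differences and any called probe set, with Dgat1 and Dgat2. The mice are separate biological replicates per the labels. The members and lists were chosen with earlier results of these data known. Promoters come from RefSeq (GRCm38.p6). Alternatives were the methods' t-test, a replicate block, arrayWeights, quantile normalization, a filter on dim probe sets, a trended variance prior and leaving out each mouse.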

Additional observations from a re-analysis of the deposited data

How the results depend on the processing

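The count of member probe sets past the study threshold was 0 under the methods' t-test, the replicate block, arrayWeights, quantile normalization, the filter on dim probe sets (which drops Prkcz and the dimmer probe set of Dgkz) and the trended prior, and 0 to 1 when 1 mouse was left out, with Prkcd called without WT replicate 2. Over all probe sets the count of 618 became 281 by the methods' t-test, 2610 with arrayWeights, 146 once dim probe sets, those under the median level, were dropped and 732 to 1335 when 1 mouse was left out. No setting gave a probe set with an adjusted p under 0.05. The sign of Prkce turned with arrayWeights (-0.040), and leaving out 1 mouse gave -0.087 to 0.12 for Prkce, -0.31 to 0.12 for the brighter probe set of Dgkz, -0.051 to 0.30 for Dgat1 and -0.69 to 0.076 for Irs1. The arrayWeights fit weighted WT replicate 3 at 5.15 and WT replicates 1 and 2 at 0.46 and 0.37, so its WT means lean on 1 mouse. The transgenic mice had weights of 0.73 to 1.53. With the mean of both probe sets Dgkz was at 0.091, and with arrayWeights its brighter probe set was at -0.41. The causes of these shifts were not tested. Prkca stayed between -0.54 and -0.43 under the 6 other settings and between -0.58 and -0.34 without 1 mouse, below the fold minimum each time. With the replicate number as a block 921 probe sets were called, 0 of them members. The fold changes were as before, and the dim probe set of Lpin2 lost its call. The labels give replicate numbers and do not say whether they pair the mice. Deviations from the group means correlated at 0.33, 0.40 and -0.17 for replicates 1, 2 and 3. Transgenic replicates 1 and 2 correlated best with the WT mouse of the same number, and transgenic replicate 3 with WT replicate 1 (0.17). Whether mice of the same number were handled together was not tested. Probe sets below the array median, such as Prkcz, may be limited by signal, which was not tested.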

Other observations

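Differences between isoforms within an array were taken for pairs picked after the values had been seen, because their fold changes ran in opposite directions. The choice of pairs fixes the direction, so the values are a description with no test. The log2 value of Prkcq minus that of Prkca was 0.91, 1.003 and 0.997 in transgenic mice, against 0.25, 0.62 and 0.43 in WT mice. Prkcq minus Prkcd averaged 2.24 ± 0.27 in transgenic mice and 1.70 ± 0.29 in WT mice (SD, n = 3 each). Dgkq minus Dgka was -2.57, -2.24 and -2.53 in transgenic mice, against -3.23, -2.68 and -2.77 in WT mice. The level of a probe set cannot be set against that of another, so only the spread of these differences between mice can be read.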
